A study of Mus musculus with 2 samples.

Results

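The genes described here were Srf, its coactivators Myocd, Mkl1 and Mkl2, and the LIM-domain cofactors Fhl2, Csrp1 and Csrp2. They were taken by name, as every gene spot of the arrays whose gene name equals 1 of these 7 symbols (the set of symbols was drawn up with earlier results of these data known). The arrays hold them on 11 probes of 39429, and all 7 genes were among the 21974 genes tested, of 29875 gene names in all. In the mutant RNA, Myocd, Mkl1, Srf and Mkl2 lay between 0.27 and 0.45 log2 above the control RNA in the mean, and above 0 on each of the 2 arrays, whereas the LIM cofactors lay between -0.021 and 0.11. With each array centred on its median in place of loess, Srf and Mkl2 lay below 0 on array 2, at -0.056 and -0.074. None of the 7 genes passed the threshold of 0.05 on the adjusted p, where 3.84% of all genes tested did.

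The study compared total RNA of mouse ureters taken from E15.5 embryos and kept in culture for 6 days. Mutant ureters, named Fgfr1/2cDKO in the labels, had the genotype Tbx18(cre/+) with Fgfr1(fl/fl) and Fgfr2(fl/fl), and control ureters had at least 1 floxed allele of each receptor, written Fgfr1(fl/?) and Fgfr2(fl/?), with no Cre listed. All were of the NMRI strain. Cre made from the Tbx18 locus acts in the mesenchyme around the ureter's epithelium and in its descendants, which include the smooth muscle, so the epithelium was not a target of the deletion. The mutant ureters also differ from the listed control genotype in the Cre allele itself. The RNAs were hybridised side by side on 2 two-colour Agilent arrays, with 150 ng of RNA per labelling. On array 1, labelled male, the mutant RNA carried Cy5, and on array 2, labelled female, it carried Cy3. A difference between the arrays can thus be one of replicate, of sex label or of dye, and these cannot be told apart. Since the number of embryos behind each RNA is unstated, p-values cover the spread between these RNA samples alone, and that may be technical. They rest mostly on a spread pooled over all genes. Each gene adds 1 residual degree of freedom of its own to a prior of 7.48.

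Serum response factor, SRF, is a DNA-binding protein of the MADS-box family that binds the CArG box, a short element of A and T bases between paired C and G bases. It works with competing sets of partners. Myocardin is a strong coactivator restricted to smooth and heart muscle and drives contractile genes, the myocardin-related factors MKL1 and MKL2, also named MRTF-A and MRTF-B, shuttle into the nucleus when monomeric actin is used up, and the ternary complex factors of the ELK group couple SRF to growth factor signalling through ERK. In the developing ureter, myocardin switches on in mesenchymal cells next to the epithelium as they become smooth muscle.

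Signal and quality were read in the same way for all genes. Of all probes, 77.4% on array 1 and 73.5% on array 2 were well above background in control RNA. In mutant RNA the shares were lower on both arrays, 69.2% and 72.2%. No gene spot was saturated. All 11 member probes were well above background in all 4 channels. Of the 44 member spots, 2 on array 1 and 0 on array 2 were outliers of the scanner software and were left out. The spread between the 4 spots of a member probe ran from 0.015 to 0.12 (SD, log2), and the median SD between arrays over all genes was 0.11. For the targeted genes the log2 ratio of mutant over control was -0.33 ± 0.15 for Fgfr1 (SD, n = 2; adjusted p = 0.134) and 0.56 ± 0.023 for Fgfr2 (adjusted p = 0.0307), the latter called higher in the RNA labelled mutant. The sources used here do not give the deleted exons, so neither value checks the labels, and mutant and control stand below for RNA so labelled.

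The sequences that were read on the arrays are 60-base probes, placed on mm9 by the file headers. No annotation of that build was used, so exon or UTR is not stated for them. The first 30 bases are shown for the probe that represents each of the 4 genes with means of 0.27 or more and for the Mkl2 probe that differed from it, all in lower case since no part of them is singled out. The Myocd probe lies at chr11:64991930-64991989 on the minus strand, the Mkl1 probe at chr15:80842711-80842770 on the minus strand and the main Mkl2 probe at chr16:13417529-13417588 on the plus strand. The Mkl2 probe for transcript variant 2 lies at chr16:13332950-13333009, and for the main Srf probe, on chromosome 17 on the minus strand, the file's span from 46683788 to 46683795 covers only part of it.
Myocd probe A_55_P2021540: taatctgaattcccctatggatctccactt
Srf probe A_51_P100289: ggtgtatccctaattaagtgcctctagggg
Mkl1 probe A_55_P2147310: ggggcaaaggcggaaagctgtgtgaacttt
Mkl2 probe A_66_P122173: tagtggcagtattgtagctgatcgggaaat
Mkl2 probe A_55_P1967241: cacatctctcatggtgttgaaaattggcac

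The promoters of the members were searched for the CArG box, since SRF acts through it and SRF is known to bind its own promoter. RefSeq promoter windows of GRCm38.p6 run from 250 bases before to 50 bases after an annotated start, and the box (a match to the consensus on either strand) stood in 535 of 32851 windows, or 1.63%. The table held 10 windows for 5 of the 7 members, and 3 of these windows, of Srf and Fhl2, held a box. No box stood in the windows of Mkl1, Mkl2 and Csrp1, and Myocd and Csrp2 were not searched. The 250 bases before the start are shown for the 3 windows with a box, in the direction of the gene, with each box in capitals. The stretch shown for Srf is chr17:46556163-46556412, and those for Fhl2 are chr1:43196762-43197011 (window 1) and chr1:43163962-43164211 (window 2), all on the minus strand.
Srf promoter: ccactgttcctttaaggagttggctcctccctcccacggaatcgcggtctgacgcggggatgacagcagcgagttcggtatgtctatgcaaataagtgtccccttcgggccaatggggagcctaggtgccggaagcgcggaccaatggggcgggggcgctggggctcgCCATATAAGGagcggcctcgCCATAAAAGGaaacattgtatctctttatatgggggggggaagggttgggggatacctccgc
Fhl2 promoter, window 1: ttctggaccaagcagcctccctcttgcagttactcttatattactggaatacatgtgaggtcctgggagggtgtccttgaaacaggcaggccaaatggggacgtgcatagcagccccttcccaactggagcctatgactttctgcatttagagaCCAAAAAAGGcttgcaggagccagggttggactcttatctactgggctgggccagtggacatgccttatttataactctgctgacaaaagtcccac
Fhl2 promoter, window 2: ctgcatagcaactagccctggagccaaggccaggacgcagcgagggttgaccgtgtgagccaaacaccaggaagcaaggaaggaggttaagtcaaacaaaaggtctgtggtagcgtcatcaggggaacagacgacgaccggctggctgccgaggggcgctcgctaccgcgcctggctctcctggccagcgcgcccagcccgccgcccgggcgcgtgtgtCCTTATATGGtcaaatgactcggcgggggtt

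Srf held 2 boxes close together, CCATATAAGG from 82 to 73 bases and CCATAAAAGG from 62 to 53 bases before the start. The Fhl2 windows held 1 box each, CCAAAAAAGG from 96 to 87 bases and CCTTATATGG from 31 to 22 bases before their starts. Fhl2 is a known SRF target as well as a cofactor. These matches describe the sequence alone, since binding was not measured.

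**Figure D1:**
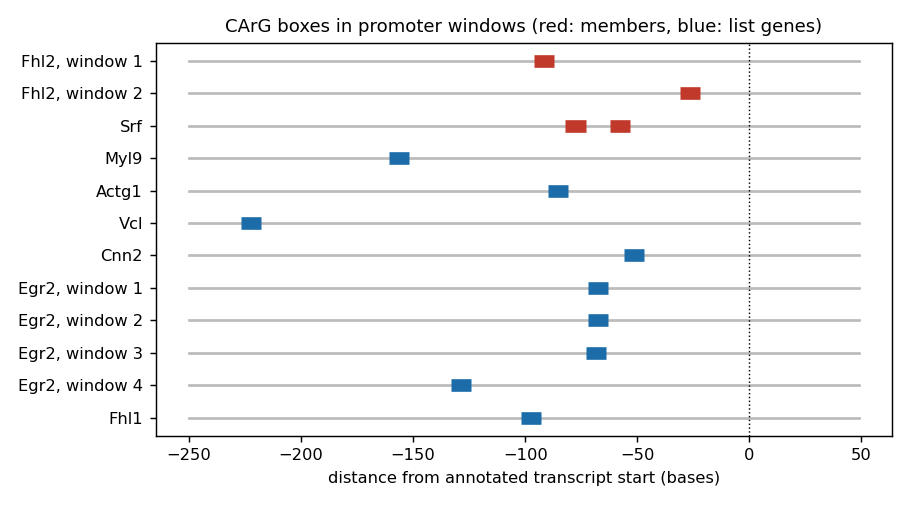
CArG boxes in RefSeq promoter windows, drawn as distance from the annotated transcript start in bases (grey lines are the windows, blocks are boxes; red for Srf and Fhl2, blue for genes of the pathway lists). The 2 Srf boxes lie from 82 to 53 bases before the start, and boxes were also found in Myl9, Actg1, Vcl, Cnn2, Egr2 and Fhl1. Among list genes with a window, these are 1 of 10 smooth muscle, 3 of 10 cytoskeletal and 1 of 5 immediate early targets, and 1 of 6 relatives. Of competitors and repressors 0 of 7 had a box, and of coactivating partners 0 of 5. Over all genes with a window the share was 1.81%.

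Srf, the factor on which all the others converge, gave on its brighter probe normalised log2 signals of 12.45 in control and 12.85 in mutant RNA on array 1, and of 12.78 in control and 13.00 in mutant RNA on array 2. Both mutant values lay above both control values, by the least margin between array 1 mutant and array 2 control RNA. How often this holds over all genes tested was not counted, here or for the genes below. The log2 ratio of mutant over control was 0.31 ± 0.13 (SD, n = 2; 95% interval from 0.064 to 0.56), with 0.41 on array 1 and 0.22 on array 2, a fold of 1.24. It did not pass the test (limma adjusted p = 0.145). The dimmer Srf probe, at chr17:46685306-46685365, read 10.89 in control and 11.13 in mutant RNA on array 1, and 10.96 and 11.27 on array 2. Its ratio of 0.28, with 0.24 on array 1 and 0.31 on array 2, had the same sign as that of the brighter probe on each array.

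Myocd, the muscle-restricted coactivator, showed the smallest spread between arrays of these genes. Its only probe read 12.09 in control and 12.54 in mutant RNA on array 1, and 12.40 in control and 12.86 in mutant RNA on array 2. Each mutant value lay above both control values. The log2 ratios of 0.45 and 0.46 on arrays 1 and 2 gave a mean of 0.45 ± 0.0067 (SD, n = 2; 95% interval from 0.21 to 0.69), a fold of 1.37. That interval comes from a standard error of 0.10, set mostly by the spread pooled over all genes and not by this SD. The adjusted p of 0.0530 fell just short of the threshold, and 5.56% of all genes tested had a ratio of larger size. The call turned on the processing, with adjusted p from 0.0201 to 0.426 over 16 alternatives and a pass in 4 of them.

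Mkl1, which carries the actin signal to SRF in most cell types, behaved on its brighter probe much as Myocd did. Signals were 11.91 in control and 12.31 in mutant RNA on array 1, and 12.19 in control and 12.63 in mutant RNA on array 2. Both mutant values lay above both control values. The log2 ratio was 0.42 ± 0.032 (SD, n = 2; 95% interval from 0.18 to 0.66; adjusted p = 0.0646), with 0.40 and 0.44 on the arrays, a fold of 1.34. In 2 of the 16 alternatives it passed, with adjusted p down to 0.0321. The dimmer Mkl1 probe, at chr15:80843080-80843139, gave a smaller ratio of 0.17, with 0.29 on array 1 and 0.054 on array 2, from signals of 9.49 and 9.78 in control and mutant RNA of array 1 and 9.67 and 9.72 of array 2. The probes thus had the same sign but a different size, most of all on array 2.

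Mkl2, the relative of Mkl1 with a known part in vascular smooth muscle of neural crest origin, read 13.16 in control and 13.45 in mutant RNA on array 1, and 13.24 and 13.49 on array 2. Both mutant values lay above both control values here too, a pattern whose share over all genes tested was not counted. The log2 ratio was 0.27 ± 0.027 (SD, n = 2; 95% interval from 0.031 to 0.51; adjusted p = 0.179), with 0.29 and 0.25 on the arrays, a fold of 1.21. The probe for transcript variant 2 read 7.14 in control and 7.18 in mutant RNA on array 1, and 7.31 and 7.26 on array 2, so its ratios of 0.046 and -0.050 had opposite signs and a mean of -0.0021. A further Mkl2 probe, which the file places from 13409769 to 13412310 on chromosome 16 and whose span is longer than the probe, read 6.76 and 6.94 on array 1 and 6.93 and 6.97 on array 2, with a mean ratio of 0.11. These 2 probes are dim, and the offset of 50 in the background correction pulls their ratios towards 0. Without the offset their means were -0.00047 and 0.19, and the variant 2 probe still had opposite signs on the arrays, 0.070 and -0.071.

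The 4 genes for SRF and its coactivators had a median log2 ratio of 0.37, and each was above 0 on both arrays. Of the 21974 genes tested, 6702 lay above 0 on both arrays and 7905 below 0 on both, so that 66.5% had the same sign on both. All 4 had an unadjusted limma p below 0.05, as did 22.5% of all genes tested. Their adjusted p ran from 0.0530 to 0.179. Without any normalisation within the arrays each of the 4 ratios turned negative, from -0.47 to -0.27, along with the median of all genes at -0.65. Under median centring, with all genes at -0.14, the means were 0.24 for Myocd, 0.21 for Mkl1, 0.095 for Srf and 0.039 for Mkl2, and only Myocd and Mkl1 were above 0 on both arrays. Relative to the median of all genes over all settings, Myocd lay from 0.38 to 0.48 above it, Mkl1 from 0.32 to 0.44, Srf from 0.24 to 0.34 and Mkl2 from 0.14 to 0.30.

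**Figure D2:**
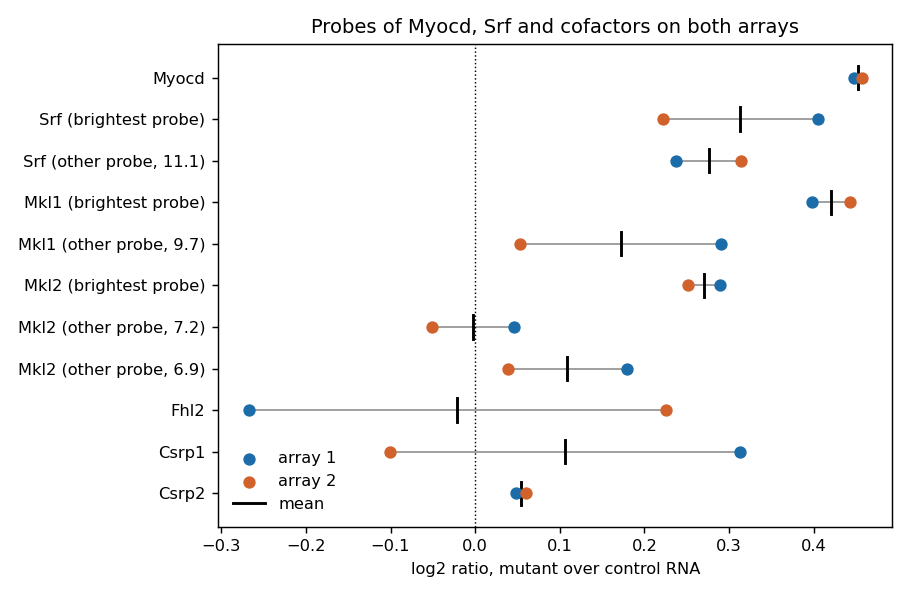
Log2 ratio of mutant over control RNA for each of the 11 member probes (x axis), with array 1 in blue, array 2 in orange and the mean as a black bar; the number beside a further probe is its mean log2 signal. Myocd, Mkl1, Srf and the main Mkl2 probe lie right of 0 on both arrays, while Fhl2, Csrp1 and the Mkl2 probe of mean signal 7.2 lie on opposite sides of 0.

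Fhl2, a LIM-only protein that is induced through SRF and can compete with MRTF for it, showed opposite differences on the arrays after loess. The Fhl2 probe, at chr1:43179994-43180053 on the minus strand, read 14.76 in control and 14.49 in mutant RNA on array 1, and 14.67 in control and 14.89 in mutant RNA on array 2. The groups overlapped, and the Cy3 channel was the brighter on each array. The log2 ratios of -0.27 and 0.23 gave a mean of -0.021 ± 0.35 (SD, n = 2; 95% interval from -0.33 to 0.29; adjusted p = 0.946). The opposite signs depended on the loess step: under median centring Fhl2 was at -0.31 on array 1 and -0.30 on array 2 (unadjusted p = 0.0357, adjusted p = 0.173), where all genes stood at -0.14. The interval after loess still takes in a ratio as large as the mean of Mkl2.

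Csrp1 encodes a protein of paired LIM domains that is abundant in smooth muscle and binds the actin cytoskeleton. Its probe, at chr1:137648747-137648806 on the plus strand, read 16.18 in control and 16.49 in mutant RNA on array 1, and 16.48 in control and 16.38 in mutant RNA on array 2. The groups overlapped here as well, with the Cy5 channel brighter on each array, the reverse of Fhl2. The log2 ratio was 0.11 ± 0.29 (SD, n = 2; 95% interval from -0.18 to 0.39; adjusted p = 0.663), from 0.31 on array 1 and -0.10 on array 2.

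Csrp2, whose product bridges SRF and GATA factors in smooth muscle, gave nearly equal signals in both genotypes. Its probe, at chr10:110376366-110376425 on the plus strand, read 15.83 in control and 15.88 in mutant RNA on array 1, and 16.03 and 16.09 on array 2. The log2 ratio was 0.054 ± 0.0082 (SD, n = 2; adjusted p = 0.803), with a 95% interval from -0.18 to 0.29. That interval takes in the mean of Mkl2 but does not reach those of Srf, Mkl1 and Myocd. Under median centring, Csrp1 and Csrp2 turned to -0.22 and -0.27, where the median of all genes was -0.14. Csrp1 then had 0.43 on array 1 and -0.87 on array 2, and Csrp2 had 0.12 on array 1 and -0.65 on array 2. As a class the 3 LIM cofactors had a median of 0.054, against 0.37 for SRF and its coactivators, and the difference between the classes was not tested. The classes also differ in probe brightness. Signals of the brightest probes ran from 14.49 to 16.49 for the LIM cofactors and from 11.91 to 13.49 for the others. Loess corrects ratios by brightness, and its part in the difference was not tested.

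**Figure D3:**
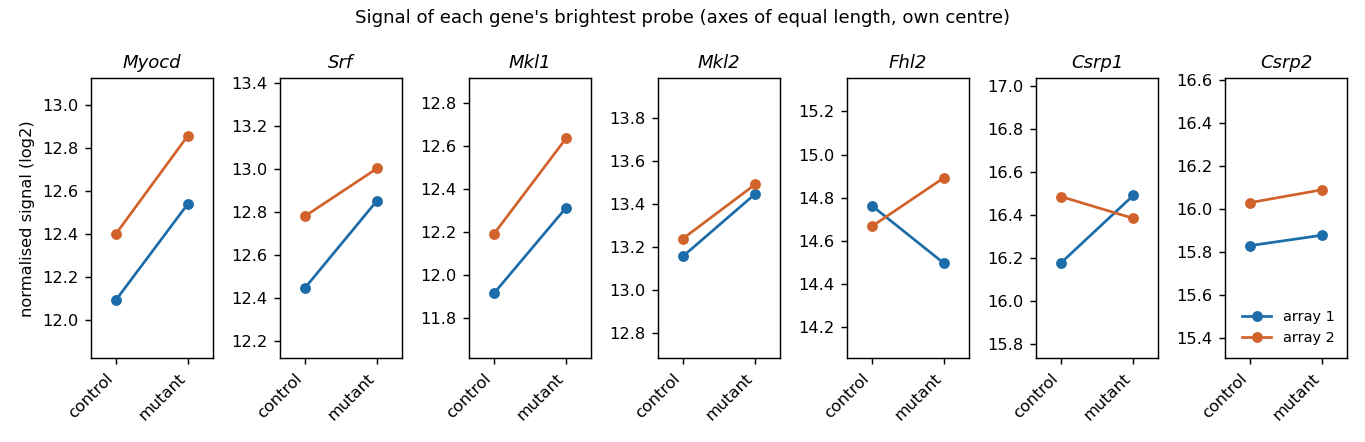
Normalised log2 signal (y axis) of each gene's brightest probe in control and mutant RNA, with array 1 in blue and array 2 in orange; the axes have equal length and their own centre, so slopes can be compared between genes and heights cannot. The lines of Myocd, Srf, Mkl1 and Mkl2 slope upward on both arrays, those of Fhl2 and of Csrp1 slope in opposite directions, and those of Csrp2 are nearly level.

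The genes that SRF and myocardin are known to activate in smooth muscle were measured with them. Of 13 such genes none passed the test, the median log2 ratio was 0.0051 against -0.019 over all genes tested, and 2 lay above 0 and 2 below 0 on both arrays. Under median centring the median of this list was -0.30, where all genes stood at -0.14. Acta2, smooth muscle actin, was at 0.0019 ± 0.025, and Myh11, smooth muscle myosin, at 0.11 ± 0.20 (SD, n = 2). By unadjusted p the foremost genes were Synpo2, an actin-binding protein of the sarcomere and dense bodies, at -0.35 ± 0.18 (adjusted p = 0.125), the intermediate filament gene Des at -0.31 ± 0.37 (adjusted p = 0.228) and Lmod1, a nucleator of actin filaments in smooth muscle, at 0.19 ± 0.10 (adjusted p = 0.341). Ratios of this list ran from -0.35 to 0.19, so the largest lay below that of each of the 4 genes for SRF and its coactivators.

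The 13 cytoskeletal targets of SRF with MRTF had a median of 0.25, with 7 of them above 0 on both arrays and 0 below, and again none passed the test. Over all 21974 genes tested, 6702 lay above 0 on both arrays and 7905 below. Under median centring that median was -0.077, where all genes stood at -0.14. Myh9, non-muscle myosin, was at 0.42 ± 0.12 (SD, n = 2; adjusted p = 0.0727), though its other probe gave -0.08. Tln1, which ties integrins to actin, was at 0.39 ± 0.16 (adjusted p = 0.0877). The cytoplasmic actin gene Actg1 was at 0.46 ± 0.38 (adjusted p = 0.108), with 0.72 on array 1 and 0.19 on array 2, and all 5 of its probes had means above 0.

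Of the immediate early targets, which SRF controls with ternary complex factors, 7 of 8 could be tested, Egr3 being not well above background in any channel. Their median was 0.27, from 0.55 over array 1 alone and 0.17 over array 2 alone. Under median centring that median was 0.069, where all genes stood at -0.14. Egr1, a zinc finger factor that growth factors induce within minutes, rose by 0.85 ± 0.34 (SD, n = 2; adjusted p = 0.0212), with 1.10 on array 1 and 0.61 on array 2, and was the only 1 of the 7 to pass, where 1.79% of all genes tested were called higher. It was called in 11 of 16 alternatives. Ier2 was at 0.44 ± 0.19 (adjusted p = 0.0732) and Egr2 at 0.39 ± 0.31 (adjusted p = 0.130).

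Among 6 relatives of the members, Fhl4 and Csrp3 were not well above background in any channel and 4 were tested. Fhl1, a LIM-only protein of striated and smooth muscle, fell by 0.48 ± 0.10 (SD, n = 2; adjusted p = 0.0495), with -0.55 on array 1 and -0.40 on array 2, where 2.05% of all genes tested were called lower. That call sits at the threshold and held in 9 of 16 alternatives. Mamstr, the MEF2-activating relative of myocardin, was at 0.17 ± 0.17 (adjusted p = 0.412), with -0.11 on its other probe, and Fhl3 at -0.086 ± 0.12 (adjusted p = 0.684).

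Of the genes known to compete with or repress myocardin and SRF, 9 of 10 were tested and had a median of 0.19, or -0.015 under median centring. Msx2, a homeobox repressor that blocks myocardin's activity, rose by 0.55 ± 0.17 (SD, n = 2; adjusted p = 0.0388), with 0.67 and 0.43 on the arrays, and was called in 11 of 16 alternatives, though without normalisation it was at -0.15, where all genes stood at -0.65. Klf5 was at 0.34 ± 0.34 (adjusted p = 0.187), and the NOTCH target Hey1 at -0.23 ± 0.0027 (adjusted p = 0.245). Among ELK factors, Elk1, Elk3 and Elk4 were at 0.25, 0.19 and 0.33 with none passing, and Elk4 had 0.79 on array 1 and -0.13 on array 2.

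Genes for factors that act together with myocardin showed small ratios on their brightest probes after loess. The 7 tested had a median of -0.11, and 5 of them lay below 0 on both arrays, including Prkg1 at -0.14 ± 0.12, Mef2c at -0.14 ± 0.15 and Mef2a at -0.13 ± 0.014 (SD, n = 2; adjusted p from 0.484 to 0.511). Over all 21974 genes tested, 7905 lay below 0 on both arrays. Under median centring the median of this list was -0.28, where all genes stood at -0.14. For Mef2a the other probes gave -0.66 and 0.20. Tead1, at 0.12, had -0.55 and 0.31 on its other probes. None of the 7 passed.

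**Figure D4:**
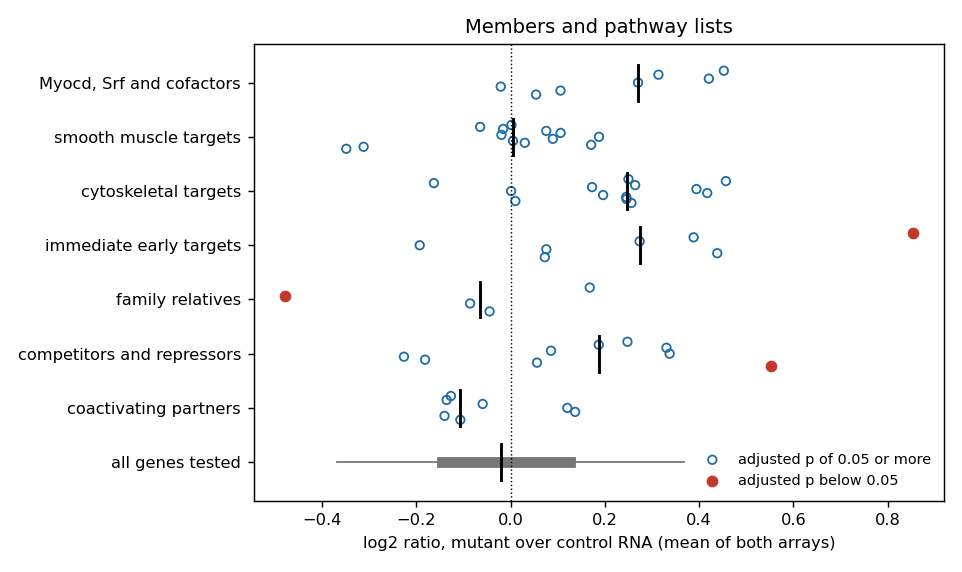
Mean log2 ratio of mutant over control RNA for each tested gene of the members and the pathway lists (circles, filled where the adjusted p is below 0.05; black bars are medians; for all genes tested the thick bar spans the quartiles, -0.15 to 0.13, and the thin line the 5th to 95th percentiles, -0.37 to 0.37). Only Egr1, Fhl1 and Msx2 are filled, and smooth muscle targets centre on 0.0051.

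The ratio pair of Myocd was also set against that of 17510 tested genes with a symbol, by the distance between their log2 ratios over the 2 arrays. The nearest were Arg2, a mitochondrial arginase, at a distance of 0.0077, then Zdhhc9, a protein palmitoyltransferase, Hoxa7, a HOX factor, Crocc, which builds the ciliary rootlet, and Slc2a4rg-ps. Their means ran from 0.44 to 0.46, with adjusted p from 0.0506 to 0.0563, and none was called. Over only 2 arrays, 202 genes lay within 0.1 of Myocd, among them Mkl1 at a distance of 0.052 and no other member.

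The cell types from which this RNA could come were followed by their markers. All 5 markers of ureteric smooth muscle, which uses myocardin, were well above background in all 4 channels with a median ratio of 0.0019, and none of them passed. These 5 genes are also among the smooth muscle targets above, so they are not a separate readout of the cell type. Of 5 markers of ureteric mesenchyme 1 was called higher, Sox9 at 0.73 ± 0.29 (SD, n = 2; adjusted p = 0.0244), and all 5 lay above 0 on both arrays with a median of 0.49. Over all 21974 genes tested, 6702 lay above 0 on both arrays. Urothelial markers had a median of 0.44 with 2 of 6 higher and 5 above 0 on both arrays, while the basal keratin Krt5 was at -0.46 and below 0 on both (adjusted p = 0.0830). Heart muscle, which also expresses Myocd, had a median of -0.40 over 4 tested markers with 1 lower, Myh6 at -2.17, and skeletal muscle a median of -0.23 over 5 with 1 lower, Ckm at -1.14, while its marker Myh3 was not well above background in any channel. Vascular mural cell markers had a median of -0.029 with 1 of 5 lower, and 1 of them, Notch3, lay above 0 on both arrays. Endothelial markers had a median of -0.63 with 3 of 5 lower, and adipocyte markers a median of -2.07 with 4 of 4 lower. Over all genes tested, 1.79% were called higher and 2.05% lower. Marker medians were computed after loess alone. In such bulk RNA fewer cells of a type and less RNA per cell cannot be told apart, and the part of these shifts in the member ratios was not tested.

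**Figure D5:**
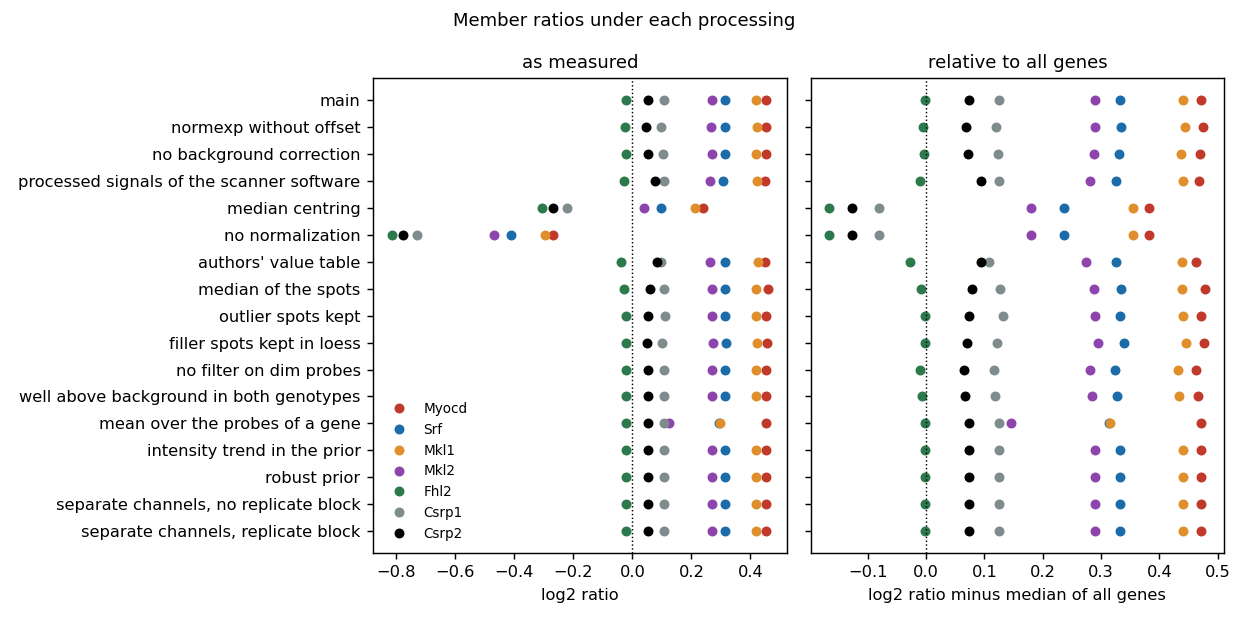
Mean log2 ratio of each member (x axis, coloured points) under 17 processing settings (rows), as measured on the left and minus the median of all genes on the right. Without normalisation and under median centring all points move left together, and on the right Myocd stays from 0.38 to 0.48 and Mkl2 from 0.14 to 0.30.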

How the data were processed

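RNA of mutant and control ureters was compared on 2 two-colour arrays with swapped dyes. The deposited scanner files hold intensity values (mean spot signal and median background). The submitters' processing notes name Agilent Feature Extraction 10.7.3.1 for them. Background-subtracted, dye-normalised intensity values and log10 ratios of red over green are also in these files, per the file headers. In the value table the authors deposited, each probe has a score, by its values a signed fold with a median of 1 on both arrays, and 8097 and 9100 probes stand at exactly 1. It correlated with the software's ratio, turned to mutant over control, at r = 0.84 and 0.85 across probes, so its direction is mutant over control, and its centring stays unknown.

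Signals were corrected by normexp (offset 50) and normalised by loess within each array in limma 3.58.1 (R 4.3.3). Control spots and 19327 filler or odd gene spots had weight 0, and outlier spots were left out. The 4 spots of a probe were averaged. Probes were tested where they stood well above background (more than 2 of 4 spots) on both arrays in at least 1 genotype, and a gene took its brightest tested probe. Of 39429 probes, 28328 were named by accession and 3643 by symbol or synonym through RefSeq (GRCm38.p6 for promoters), and 7458 kept the file's name. Ratios were tested against 0 by limma's two-sided test (lmFit, eBayes), adjusted by Benjamini-Hochberg over all 21974 genes (residual degrees of freedom 1, prior 7.48), and 843 were called. The fit was tested on 10 simulated data sets of 21974 genes, 200 of them changed, with spreads drawn from the fitted prior. Of changes of 0.5 log2 it called 21.6% (median), of 1 log2 98.5% and of 2 log2 100%. False calls were 2.8% to 14.9% of the calls in a simulation. All members lay below 0.5, so a missing call does not show that a gene was unchanged. The arrays share 1 slide and scan, so no such batch could be tested. On each array the genotypes are paired by hybridisation, which the ratios use as the block. The number of arrays limits the precision.

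Members and lists were chosen with earlier results of these data known. A further list of genes is not reported here. Named are all members with every probe, the called genes of each list or else its 3 genes of smallest p, and the 5 genes nearest to Myocd. Where a list had a called gene, others named from it are those of smallest p, and Acta2, Myh11, Elk1, Elk3, Elk4, the targeted genes and the markers were named after their values were seen. Alternatives covered background correction, normalisation, the value table, the filter, the probe rule, spots, the prior, separate channels, the threshold and each array alone.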

Additional observations from a re-analysis of the deposited data

Results flagged for a closer look

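On the arrays labelled male and female, 4 member probes or relatives and 3 further genes named in the report had opposite signs after loess. The difference was not tested, since each label has 1 array and sex label, replicate and dye cannot be told apart. Csrp1 had log2 ratios of 0.31 (male) and -0.10 (female), and 0.43 and -0.87 under median centring. Csrp2, above 0 on both arrays after loess, had 0.12 (male) and -0.65 (female) under median centring. Fhl2 had -0.27 (male) and 0.23 (female), but -0.31 and -0.30 under median centring. The Mkl2 probe for transcript variant 2 had 0.046 (male) and -0.050 (female), but 0.078 and 0.011 under median centring. The relative Fhl3 had -0.17 (male) and 0.00037 (female), the latter so close to 0 that its sign carries little. Elk4 had 0.79 (male) and -0.13 (female), Myh11 -0.033 (male) and 0.24 (female), and Acta2 -0.016 (male) and 0.020 (female). Other list genes, not named here, also had opposite signs.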

How the results depend on the processing

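The 4 genes for SRF and its coactivators had means above 0 in 15 of 16 alternatives, all but the one without normalisation. The alternatives for the filter, the prior and the separate channels left these 4 ratios unchanged, so they do not test the direction. Without normalisation, where the median of all genes was -0.65 and 14197 genes were called (0.0563% of them higher, against 46.6% of the 843 calls after loess), Myocd was at -0.27, Srf at -0.41, Mkl1 at -0.30, Mkl2 at -0.47, Csrp1 at -0.73, Csrp2 at -0.78 and Fhl2 at -0.82 (adjusted p = 0.00684), and 3 members were called lower. In the lists, the same setting turned Lmod1 to -0.37, Actg1 to -0.39, Tln1 to -0.42, Myh9 to -0.41, Egr2 to -0.32, Ier2 to -0.20, Mamstr to -0.47, Klf5 to -0.37 and Msx2 to -0.15. Under median centring, with all genes at -0.14, Csrp1 was at -0.22, Csrp2 at -0.27, Fhl2 at -0.31, Myocd at 0.24, Mkl1 at 0.21, Srf at 0.095 (-0.056 on array 2) and Mkl2 at 0.039 (-0.074 on array 2), and limma called 0 genes (5565 at an unadjusted p below 0.05). The median of the spots called 2 members, Myocd (0.46, adjusted p = 0.0201) and Mkl1 (0.42, 0.0321), and 1760 genes. An intensity trend in the prior called the same 2 members (Myocd 0.45, 0.0281; Mkl1 0.42, 0.0381) and 1416 genes. The filter for both genotypes called 1 member, Myocd (0.45, 0.0428), and 1114 of 20592 genes. The mean over probes called Myocd (0.45, 0.0388) and 1012 of 21974 genes, but it cannot change the ratio of Myocd, which has a single probe. For members with further probes this setting gave smaller ratios, 0.30 for Mkl1 (limma adjusted p = 0.125), 0.29 for Srf (0.125) and 0.13 for Mkl2 (0.486). A threshold of 0.1 called 2 members and 1918 genes. The scanner software's processed signals called 10 genes, and the values the authors deposited called 151. With separate channels and the array as replicate block the result was that of the ratios, with Myocd at 0.45 and 843 genes called, and without the replicate block 3 genes were called. Keeping filler spots in the loess, an alternative added after seeing the data, called 725 genes. With 1 array left there was no test, and members ran from 0.45 to 0.46 (Myocd), 0.22 to 0.41 (Srf), 0.40 to 0.44 (Mkl1), 0.25 to 0.29 (Mkl2), -0.27 to 0.23 (Fhl2), -0.10 to 0.31 (Csrp1) and 0.048 to 0.060 (Csrp2). Beyond the effect of the settings' own construction, the cause was not tested. With 1 residual degree of freedom, ratios of the size seen here lie near the limit of what the fit can call, and Fhl2 and Csrp1 have wider intervals than the rest.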
